A study of Mus musculus with 18 samples.

Results

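H3K27me3 at gene starts and H3K36me3 along gene bodies were compared in untreated mouse embryonic stem cells of the pluripotent line E14, kept here in 2i/LIF medium. The comparison used 4 of the 18 libraries of the series: 2 of H3K27me3 and 2 of H3K36me3 chromatin immunoprecipitation. All 4 came from untreated cells without spike-in chromatin. DMSO-treated cells and cells given 10 µM EPZ-6438 for 7 days, an inhibitor of the methyltransferase EZH2, served as further readings; their chromatin carried Drosophila S2 chromatin at 0.05%. All cells were grown in a medium with isotope-labelled or unlabelled arginine and lysine. The labels do not say whether the replicates were separate cultures, so p-values measure the spread between these libraries, which may be technical.

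H3K27me3 is placed by the Polycomb complex PRC2, whose catalytic subunit is EZH1 or EZH2, and is known in embryonic stem cells for covering the CpG-rich starts of silent developmental genes. H3K36me3 is placed by SETD2, which travels with elongating RNA polymerase II, so that the mark builds up along transcribed gene bodies. Methylation of lysine 36 hinders PRC2 on the same histone tail. The stem-cell genome is therefore usually divided between the 2 marks, and genes that carry both are the less familiar case. No RNA was measured here, so genes are named by their marks and not as silent or active.

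The level of a mark is the mean reads per 1000000 over a region divided by the mean over all autosomal windows of that library, so that 1 is the autosomal mean. The promoter was the start site with 1 kb on each side, and the body ran from 2 kb after the start to the gene end. Of 16096 autosomal protein-coding genes of 5 kb or more (mouse build GRCm38), 12625 had a start site in the promoter table and were classified. H3K27me3-only genes had promoter H3K27me3 of at least 3 and body H3K36me3 under 1, in both libraries of each mark, and numbered 955 (7.56%). H3K36me3-only genes had body H3K36me3 of at least 2 and promoter H3K27me3 under 1, and numbered 4936 (39.1%). Double-marked genes passed both high limits and numbered 498 (3.94%). Another 1402 genes (11.1%) were under 1 for both and are called unmarked, and 4834 (38.3%) were intermediate. These limits chose the members, so the levels of the 2 chosen readings are given as descriptions and are not tested between classes.

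The 4 libraries held 17.3 to 25.4 reads in units of 1000000, as read from the step size of the deposited values. A level of 1 over a promoter corresponded to 44.97 to 53.8 window reads in the H3K27me3 libraries. The windows overlap, so a read is counted in several windows and the number of distinct reads is smaller. Markers of the labelled cells were checked by their bodies: 7 of 7 pluripotent stem cell markers analysed had body H3K36me3 of at least 2 in both libraries, against 0 of 5 fibroblast markers, 0 of 3 primitive endoderm markers and 49.9% of all genes. Of the listed markers 3 of 10, 5 of 10 and 5 of 8 were left out as not among the genes analysed. Of 5 trophoblast markers 2 passed (Cdx2 and Eomes), and of 4 neural markers 2 passed.

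The sequence before the start site set the unmarked genes apart from the rest. Promoter sequences of 300 bases from RefSeq (GRCm38.p6; 250 before and 50 after the start) held a median of 14 CpG dinucleotides in H3K27me3-only genes, 22 in H3K36me3-only genes, 22 in double-marked genes and 2 in unmarked genes. At least 10 CpG were found in 64.4%, 90.1%, 78.5% and 18.5% of them, against 66.8% of all genes analysed and 43.5% of all 32851 promoters of the table. CG reads the same on both strands. The 150 bases before the start of 6 genes show this range, with each CG in capitals: the first of each class by the ranking used below, a CpG-rich double-marked Notch ligand gene, an imprinted double-marked gene, and an unmarked gene at that class's median; the Notch ligand and imprinted genes were chosen after their values were seen. All are 5′ to 3′ on the gene's own strand.
Crmp1 (H3K27me3-only, chr5:37241908-37242057, + strand): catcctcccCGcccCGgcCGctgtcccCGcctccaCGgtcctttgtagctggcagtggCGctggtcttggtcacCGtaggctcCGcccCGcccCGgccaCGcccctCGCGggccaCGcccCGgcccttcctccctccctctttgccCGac
Cactin (H3K36me3-only, chr10:81320953-81321102, + strand): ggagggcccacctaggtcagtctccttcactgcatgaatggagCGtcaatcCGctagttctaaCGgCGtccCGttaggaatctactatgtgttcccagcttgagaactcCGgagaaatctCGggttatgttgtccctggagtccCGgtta
Tymp (double-marked, chr15:89377037-89377186, - strand): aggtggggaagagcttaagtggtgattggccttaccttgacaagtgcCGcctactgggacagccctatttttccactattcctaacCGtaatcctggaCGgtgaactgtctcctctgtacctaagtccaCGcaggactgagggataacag
Jag2 (double-marked, chr12:112929496-112929645, - strand): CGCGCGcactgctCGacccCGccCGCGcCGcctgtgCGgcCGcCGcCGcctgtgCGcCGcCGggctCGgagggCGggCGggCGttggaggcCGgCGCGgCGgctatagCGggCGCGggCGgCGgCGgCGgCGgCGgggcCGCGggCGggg
Igf2r (double-marked, chr17:12769707-12769856, - strand): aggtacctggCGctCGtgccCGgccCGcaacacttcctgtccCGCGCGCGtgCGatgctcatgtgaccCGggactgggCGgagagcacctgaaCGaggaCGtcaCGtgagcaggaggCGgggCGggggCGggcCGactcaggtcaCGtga
Gm8251 (unmarked, chr1:44079747-44079896, - strand): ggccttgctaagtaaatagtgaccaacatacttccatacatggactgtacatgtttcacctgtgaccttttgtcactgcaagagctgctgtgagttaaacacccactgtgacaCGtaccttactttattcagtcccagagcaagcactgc
These stretches hold 16 CG in Crmp1, 8 in Cactin, 4 in Tymp, 35 in Jag2, 19 in Igf2r and 1 in Gm8251. Over the full 300 bases Tymp held 10 CG and Jag2 63, and 391 of the 498 double-marked genes held at least 10.

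The marks were mostly found on different genes. Body H3K36me3 reached 2 in both libraries in 72.2% of 5052 genes with promoter H3K27me3 under 0.25. The share was 53.7% for promoter levels of 0.25 to 1, 33.5% for 1 to 3, 21.8% for 3 to 6, 17.2% for 6 to 10 and 14.3% of 435 genes above 10. Over the 12625 genes, Spearman's rho between promoter H3K27me3 and body H3K36me3 was -0.34 to -0.41 in the 4 pairings of libraries. This is a correlation across genes that share libraries, and genes are not independent replicates. Of the 2680 genes with high promoter H3K27me3, 18.6% also had high body H3K36me3, against 49.9% of all genes. Of the 6299 genes with high body H3K36me3, 7.91% also had high promoter H3K27me3, against 21.2% of all genes.

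**Figure D1:**
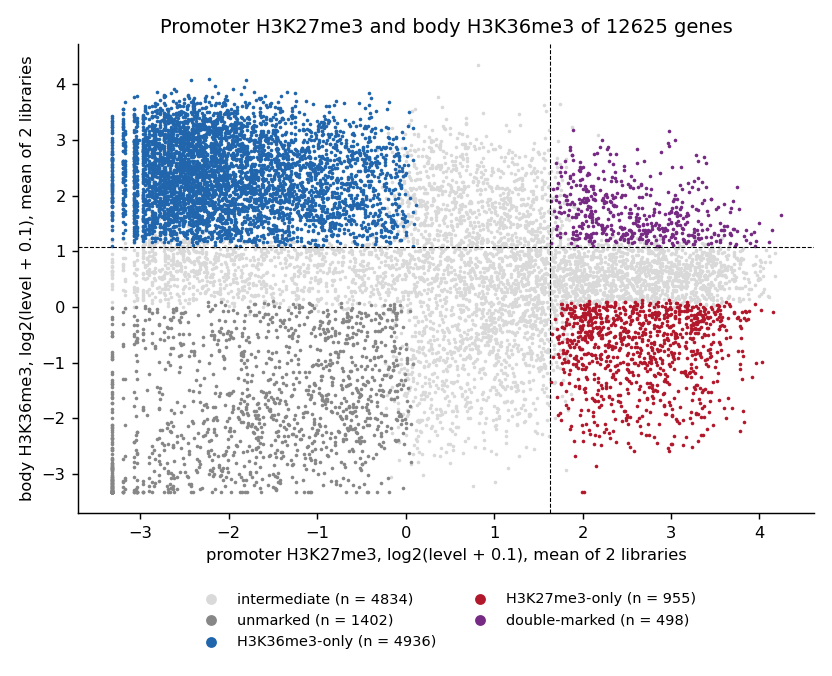
Promoter H3K27me3 (x axis) against body H3K36me3 (y axis) for 12625 genes, each as log2(level + 0.1) of the mean of 2 libraries; each point is a gene coloured by class, and dashed lines mark levels of 3 and 2. The densest cloud lies at the upper left, and no gap separates the 498 double-marked genes from their intermediate neighbours.

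The 8 H3K27me3-only genes with the highest promoter H3K27me3 are of several kinds. Crmp1, a neuronal gene of semaphorin signalling (chr5:37242058-37292163), had promoter H3K27me3 of 19.5 and 15.8 and body H3K36me3 of 0.71 and 0.97 in the 2 libraries of each mark. Dchs2 and Fat4, which encode large cadherins of the planar polarity system, had promoter levels of 17.03 and 15.5, and of 15.8 and 15.1. Bmp6, a BMP ligand, had 14.2 and 15.2, and Bnc1, a zinc-finger gene of keratinocytes and germ cells, had 14.7 and 14.4. The other 3 of the 8 highest were Mpped1, Myrip and Ptprt, whose 6 library values ran from 13.7 to 16.3. Body H3K27me3 in these 8 genes ran from 1.25 and 1.39 in Ptprt to 6.17 and 6.07 in Mpped1. Genes of this class were long, with a median of 77.7 kb against 25.9 kb over all genes analysed.

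The 8 H3K36me3-only genes with the highest body H3K36me3 include enzymes, replication and RNA-processing genes. Cactin, which acts in pre-mRNA splicing (chr10:81321103-81326251), had body H3K36me3 of 14.8 and 19.1 and promoter H3K27me3 of 0.074 and 0.16. Fasn, the fatty acid synthase, had body levels of 15.5 and 17.9, and Prmt5, an arginine methyltransferase, had 14.8 and 18.7. Cdt1, which licenses replication origins, had 13.5 and 17.03, and Aldoa, a glycolytic aldolase, had 13.5 and 15.7. The other 3 of the 8 highest were Zfp553, a zinc-finger gene, Mybbp1a, a nucleolar protein gene, and Gtf3a, the factor TFIIIA of 5S RNA transcription. Library 2 read higher than library 1 in all 8. In all 8, body H3K27me3 stayed between 0.0297 and 0.84.

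**Figure D2:**
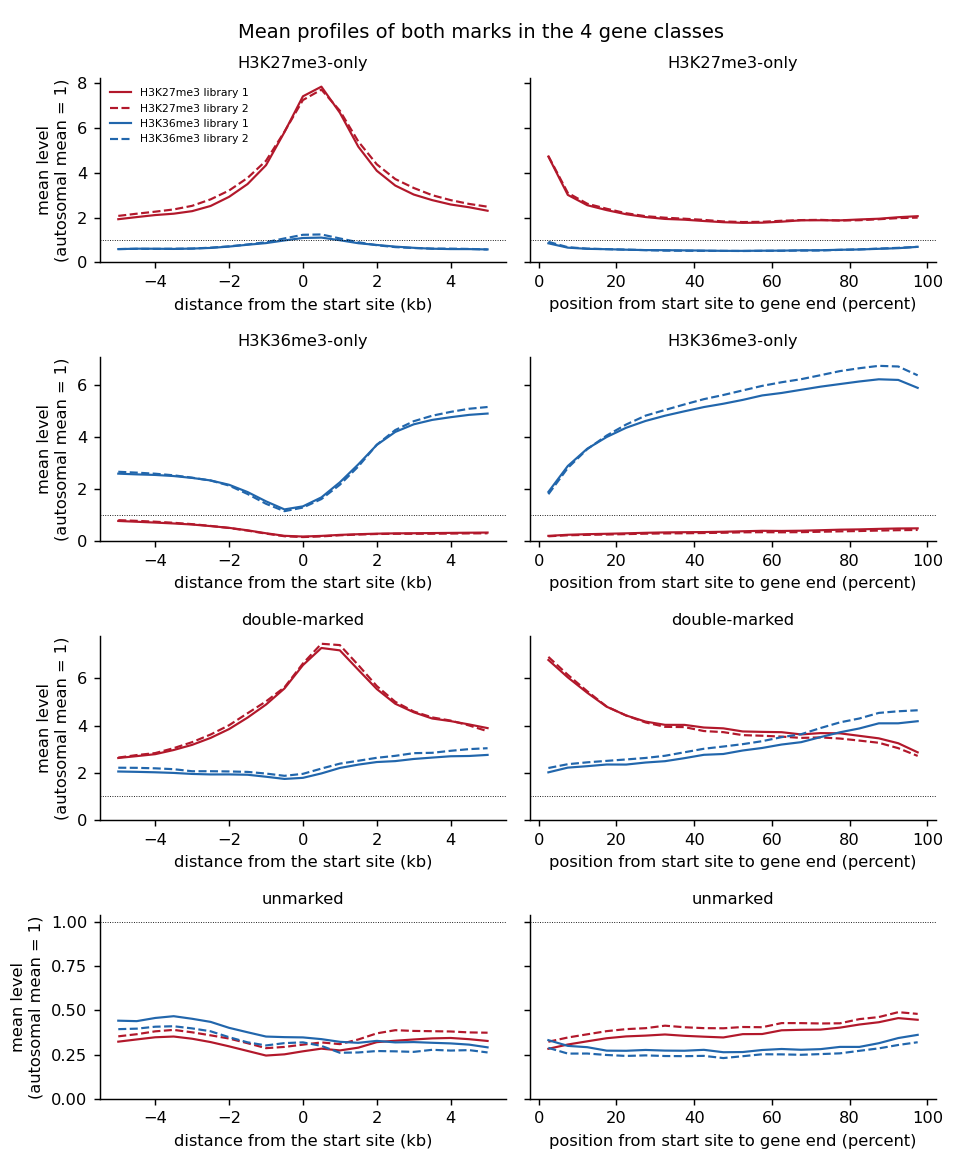
Mean level of H3K27me3 (red) and H3K36me3 (blue) over the genes of each class, by distance from the start site in kb (left) and by percent of the span from start to gene end (right); solid and dashed lines are libraries 1 and 2, and the dotted line is the autosomal mean. In double-marked genes H3K27me3 falls from 6.78 and 6.91 in the first 5% of the span to 2.87 and 2.71 in the last, while H3K36me3 rises from 2.02 and 2.202 to 4.19 and 4.65.

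In double-marked genes mean H3K27me3 was highest near the start and mean H3K36me3 highest towards the 3′ end, both above the autosomal mean throughout. At the start site, mean H3K27me3 was 6.56 and 6.63 in double-marked genes and 7.42 and 7.25 in H3K27me3-only genes. At 5 kb after the start it was 3.89 and 3.76 in the former and 2.30 and 2.48 in the latter. H3K36me3 at 5 kb was 2.76 and 3.04 in double-marked genes and 4.89 and 5.15 in H3K36me3-only genes. At the start site itself H3K36me3 was 1.79 and 1.95 in double-marked genes, 1.33 and 1.29 in H3K36me3-only genes and 1.08 and 1.23 in H3K27me3-only genes. Double-marked genes were short, with a median of 17.2 kb.

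The 8 double-marked genes with the highest combined score (the lower of promoter H3K27me3 over 3 and body H3K36me3 over 2) differed most in body H3K27me3. Tymp, the thymidine phosphorylase gene, had promoter H3K27me3 of 10.1 and 9.14 and body H3K36me3 of 6.02 and 6.97. Its body H3K27me3 was 0.76 and 0.58, but promoter H3K36me3 was 3.39 and 3.70. Of its windows of 1 kb from start to end, 36.4% were high for both marks, 54.5% for H3K36me3 alone and 0% for H3K27me3 alone. Rassf1, a Ras-association gene known as a tumour suppressor, had promoter H3K27me3 of 10.6 and 10.2 and body H3K36me3 of 5.94 and 5.90. Its body H3K27me3 was only 0.62 and 0.56. At its most downstream listed start, 3.03 kb away, H3K27me3 was 1.24 and 1.29. Body H3K27me3 was 0.67 and 0.64 in 4933428G20Rik, 1.48 and 1.11 in Slc16a3, a lactate transporter, and 1.76 and 1.75 in Plppr3, a lipid phosphatase-related gene of neurons. In these 3 genes 15% to 24.1% of windows were high for both marks and 0% to 3.45% for H3K27me3 alone, so the stretch with H3K27me3 mostly carried H3K36me3 as well. Grin3b, an NMDA receptor subunit, had much more of it: its promoter H3K27me3 was 7.54 and 8.74, its body H3K27me3 was 11.5 and 10.2, and its body H3K36me3 was 7.57 and 8.15. All windows of Grin3b were marked by both. Aebp1 and Coro1a lay between, with body H3K27me3 of 2.51 to 3.16. Of these 8 genes 7 overlapped at least 1 other protein-coding gene and only Coro1a overlapped none; reads of an overlapping gene cannot be told apart from those of the gene itself. In the class as a whole 28.9% overlapped another protein-coding gene, against 26.5% of all genes and 35.5% of H3K36me3-only genes.

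Genes lay on both sides of the limits with no gap. The 3 nearest inside were Nphs1, with promoter H3K27me3 of 3.06 and 3.002, and Bcan and Foxn4, whose lower body H3K36me3 was 2.001 and 2.002. The 3 nearest outside were Asb10, Sema3g and Stat5b, whose lower body H3K36me3 was 1.998, 1.996 and 1.996.

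**Figure D3:**
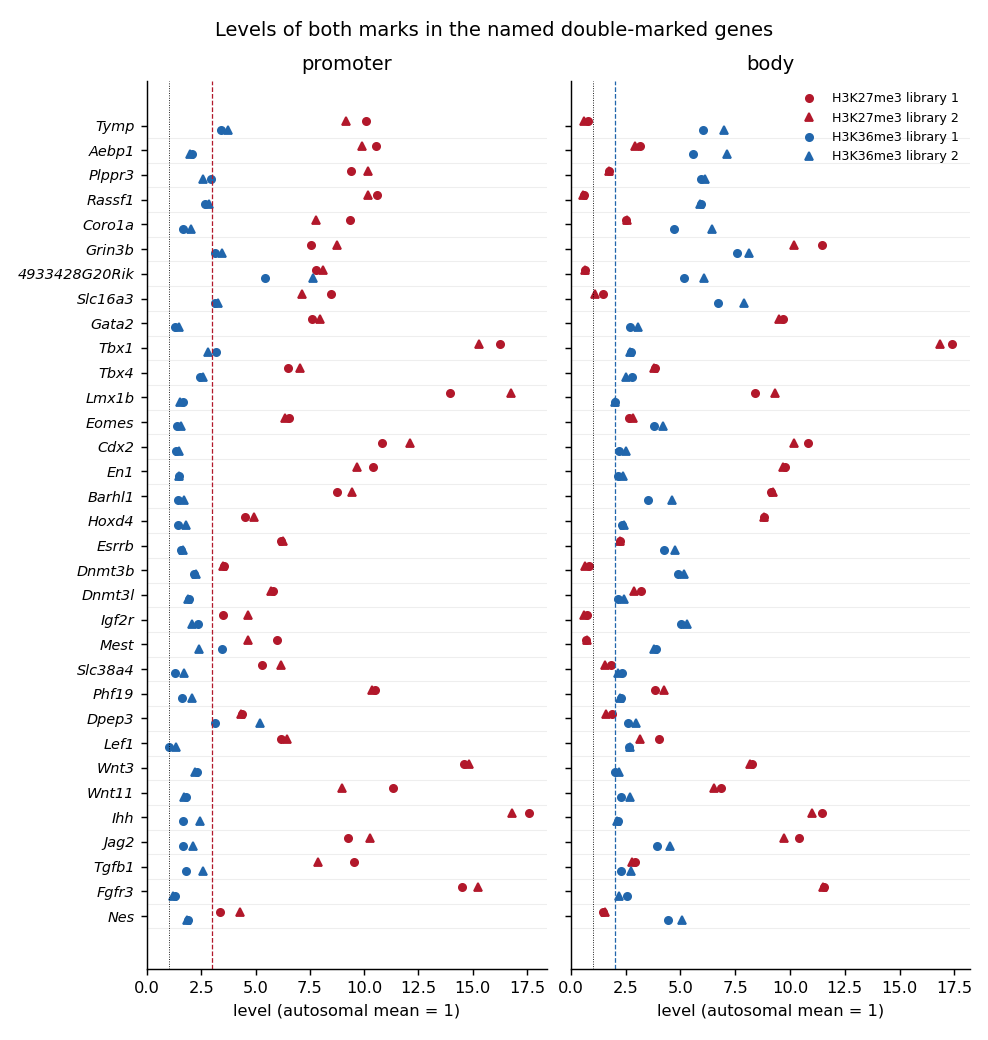
Promoter (left) and body (right) levels of H3K27me3 (red) and H3K36me3 (blue) in 33 named double-marked genes; circles and triangles are libraries 1 and 2, the dotted line is the autosomal mean and dashed lines are the limits of 3 and 2. Body H3K27me3 ranges from under 1 in Tymp, Rassf1, 4933428G20Rik, Dnmt3b, Igf2r and Mest to 17.4 and 16.8 in Tbx1.

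Windows of 1 kb were used to ask whether the marks met inside these genes. On average 37.3% of the windows from start to end of a double-marked gene had H3K27me3 of at least 3 and H3K36me3 of at least 2, each as the mean of 2 libraries, 14.7% had H3K27me3 alone and 33.3% had H3K36me3 alone. Over all genes, the mean share of a gene's windows with both was 4.63%. No window with both was found in 21 of the 498 genes (4.22%), against 53.7% of intermediate and 72.4% of all genes; the class was chosen from the same libraries for both marks, so this is a description. A chromatin immunoprecipitation of a cell population cannot tell apart both marks on 1 nucleosome, on the 2 alleles, or in different cells. A split of the class by body H3K27me3, chosen after its values were seen, gave 232 genes at 3 or more in both libraries, 50 under 1 in both and 216 between. In the 232 genes a median of 59.1% of windows carried both, and in the 50 genes 2.104%; the split used the same H3K27me3 values and largely fixes this difference. The latter had body H3K36me3 of 3.87 and 4.16, against 2.497 and 2.75 in the former.

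The position of the marks along the body was tested with the tilt, the log2 level (+ 0.1) of the 3′ portion of the body minus that of the 5′ portion, split at the midpoint. The tilt of H3K36me3 was compared with that of H3K27me3 with limma over 12524 genes. At an adjusted p under 0.05, 40.2% of all genes tested were called: 26.4% had H3K36me3 shifted further towards the 3′ end than H3K27me3 and 13.8% the reverse. In the double-marked class 264 of 498 were shifted 3′ and 36 the reverse, with a median tilt difference of 0.63 against 0.16 over all genes. In the H3K27me3-only class 208 were shifted 3′ and 78 the reverse (median 0.13), and in the H3K36me3-only class 1174 and 675 (median 0.14). The 5′ portion lies next to the promoter that chose these genes for H3K27me3, so the fall of that mark is not independent of the choice. H3K36me3 alone had a median tilt of 0.44 and 0.45 in double-marked genes, 0.27 and 0.31 in H3K36me3-only genes and 0.21 and 0.23 over all genes. The number of genes called over all genes fell from 5034 to 2133 without H3K36me3 library 2 and to 2319 without library 1.

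Single genes showed the range. Esrrb, a nuclear receptor gene of naive pluripotency (chr12, 160.5 kb), had a tilt difference of 6.004 (SE 0.14, limma adjusted p = 0.00074). Its H3K27me3 tilt was -4.15 and -4.30 and its H3K36me3 tilt 1.77 and 1.79, so that H3K27me3 was higher in the 5′ portion and H3K36me3 in the 3′ portion in every library. Tymp had a difference of 4.53 (SE 0.24, limma adjusted p = 0.00097), and Plppr3 one of 4.29. Mest, an imprinted gene of the mesoderm, reached 2.83, Rassf1 2.78, Coro1a 2.27 and Aebp1 1.99. Lower values that passed were 1.40 for Grin3b, 1.27 for 4933428G20Rik, 1.06 for Igf2r and 0.76 for Gata2. The last 3 no longer passed when a H3K36me3 library was left out. The tilt difference was 0.51 for Jag2 (limma adjusted p = 0.052), 0.27 for Slc16a3 and -0.039 for Tbx1, none of which passed; the first 2 passed with a pseudocount of 0.5. Nphs1, the nephrin gene, went the other way by -1.25, and Nes, the nestin gene, by -1.11; the call for Nes was lost without either H3K36me3 library and with a pseudocount of 0.02.

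The second start here is the most downstream listed start, where it lay at least 3 kb from the first. Other listed starts can lie between them. The stretch between the starts left out 1 kb at each start, and the stretch after began 2 kb beyond the second start. In H3K36me3-only genes mean H3K36me3 was 2.26 and 2.16 at 1 kb after the start and 3.69 and 3.70 at 2 kb. The margins were thus unequal, and their part in the values after the second start was not tested. A second start was found for 71 double-marked genes (14.3%), against 11.3% of H3K27me3-only and 6.12% of H3K36me3-only genes. In 24 of the 71 the second start had H3K27me3 under 1 in both libraries. The same was so in 20 of 108 H3K27me3-only, 255 of 302 H3K36me3-only and 66 of 91 unmarked genes. The set of 24 was chosen after the values were seen and is described without a test. Septin9, a cytoskeletal GTPase gene, had H3K27me3 of 8.86 and 7.45 at the first start and 0.13 and 0.089 at the second, 132.7 kb away; its H3K36me3 was 2.30 and 2.41 between the starts and 5.92 and 7.42 after the second. Mad2l2, a DNA repair and primordial germ cell gene, had H3K27me3 of 6.65 and 7.16 at the first start and 0.37 and 0.56 at the second, and H3K36me3 of 1.33 and 0.99 between them and 8.14 and 9.17 beyond. In Dab2ip, a Ras GTPase-activating gene, H3K36me3 was 3.52 and 3.50 between the starts and 7.16 and 8.43 beyond. H3K27me3 was lower after the second start than between the starts in both libraries in 18 of the 24 genes, higher in 4 (Lmna, Gse1, Sptbn4 and Dctd) and mixed in 2. In Lmna, the lamin A/C gene, it was 1.24 and 0.85 between and 6.49 and 5.15 after, and in Ptprs, a receptor phosphatase gene, it was lower after but still 4.26 and 4.21. H3K36me3 was higher after the second start than between the starts in both libraries in 24 of 24 genes, with a median of 2.02 and 2.29 between and 4.74 and 5.51 after. The same was so in 17 of 19 double-marked genes whose second start had H3K27me3 of at least 3 (89.5%), where H3K27me3 was lower after in 11, and in 253 of 283 H3K36me3-only genes with a second start (89.4%), so a higher H3K36me3 level beyond a second start was common to all 3 sets. In 23 of the 71 genes the second start also had H3K27me3 of at least 3, against 48 of 108 H3K27me3-only genes. Esrrb was among the 23, with 6.17 and 6.27 at the first and 11.9 and 12.9 at the second.

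**Figure D4:**
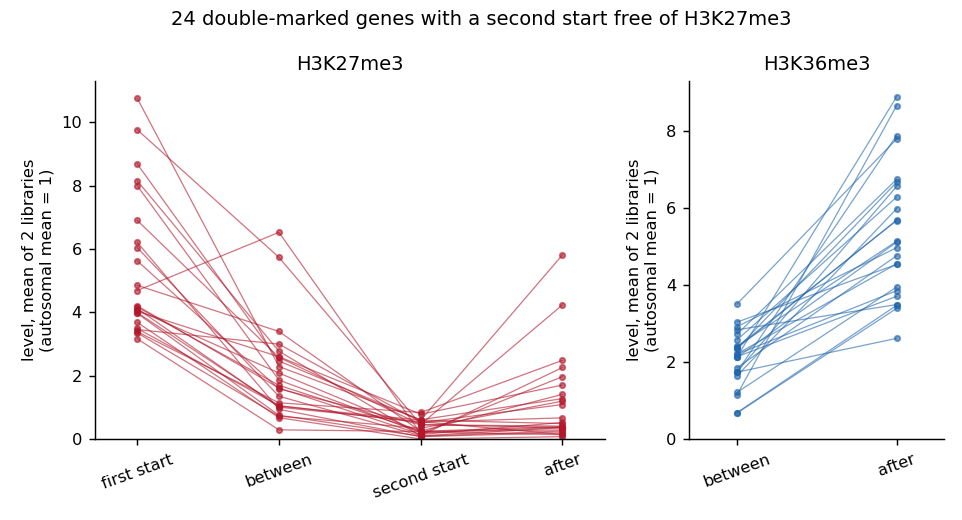
Levels (y axis, autosomal mean = 1, mean of 2 libraries) of H3K27me3 (left) and H3K36me3 (right) in the 24 double-marked genes whose second start has H3K27me3 under 1; each line is a gene, read at its starts, between them and from 2 kb after the second start to the gene end. H3K36me3 rises from between to after in 24 of 24 genes. The stretch between leaves out 1 kb at each start, so the margins of the stretches differ.

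Developmental regulators carried promoter H3K27me3 almost throughout. Of the 40 analysed, 38 were at 3 or more in both libraries, where 21.2% of all genes were. Some listed genes were not among those analysed. These were 30 of 70 developmental regulators, 16 of 49 signalling genes, 13 of 28 pluripotency genes and 22 of 62 imprinted genes. Elsewhere they were 8 of 35 housekeeping, 8 of 21 writer and eraser, 4 of 15 germline and 6 of 13 primed-state genes. By class, 9 of the 40 developmental regulators were H3K27me3-only (7.56% of all genes were), 0 H3K36me3-only (39.1%), 9 double-marked (3.94%) and 22 intermediate (38.3%). Six2, Nkx6-1, Zic1 and Lhx9, which pattern kidney, pancreas and brain, led the H3K27me3-only members with promoter levels from 7.63 to 12.6. The double-marked members were Tbx1, Tbx4, Eomes, Gata2, Lmx1b, Cdx2, En1, Barhl1 and Hoxd4. Tbx1, a T-box gene of the pharyngeal arches, had promoter H3K27me3 of 16.3 and 15.3, body H3K27me3 of 17.4 and 16.8 and body H3K36me3 of 2.77 and 2.70. Eomes, a T-box gene of mesendoderm and trophoblast, had the highest mean body H3K36me3 of the 9 after Barhl1, at 3.78 and 4.22 against 3.55 and 4.62. Lmx1b, at 2.02 and 2.03, lay just above the limit. The median body H3K36me3 of the 40 genes was 1.64 and 1.63, below 2.14 and 2.101 over all genes.

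Of 33 signalling ligands and receptors analysed, 3 were H3K27me3-only, 7 H3K36me3-only, 5 double-marked, 2 unmarked and 16 intermediate. The shares over all genes, which also apply to the lists that follow, were 7.56%, 39.1%, 3.94%, 11.1% and 38.3% in the same order, so the H3K27me3-only count was near the background. Notch1, a Notch receptor, and Il6st, the shared receptor chain through which LIF acts, were H3K36me3-only with body levels of 7.79 and 9.14, and of 5.85 and 6.53. The 5 double-marked genes were ligands except Fgfr3. Jag2, a Notch ligand, had promoter H3K27me3 of 9.27 and 10.3, body H3K27me3 of 10.4 and 9.71 and body H3K36me3 of 3.94 and 4.55, and every window of the gene carried both. Ihh, a hedgehog ligand, had promoter H3K27me3 of 17.6 and 16.8 beside body H3K36me3 of 2.16 and 2.12. Wnt11, Tgfb1 and Fgfr3 had body H3K36me3 between 2.203 and 2.75.

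Of 15 pluripotency genes analysed, 10 were H3K36me3-only (39.1% of all genes were). They were led by Zscan10 (7.61 and 8.85), Tfcp2l1 (7.41 and 8.30), Nanog (6.97 and 8.32) and Tdgf1 (7.00 and 8.04). Esrrb, Dnmt3b and Dnmt3l were double-marked. Dnmt3b, a de novo DNA methyltransferase, had promoter H3K27me3 of 3.53 and 3.51, near the limit, and body H3K36me3 of 4.89 and 5.15, with both marks in 1.299% of its windows. Dnmt3l, its catalytically inactive partner, had 5.78 and 5.72 at the promoter and 2.14 and 2.45 in the body, with both marks in 41.9% of windows. Of 27 housekeeping genes 25 were H3K36me3-only, against the same 39.1%, and 0 had high promoter H3K27me3. Of 13 enzymes and partners that write or erase the 2 marks 10 were H3K36me3-only, among them the demethylase gene Kdm4a at 9.37 and 10.8 and the PRC2 core genes Eed, Suz12 and Rbbp4 at 4.33 to 5.53. The catalytic core gene Ezh2, also H3K36me3-only, was lower, with a mean of 2.79, and the demethylase genes Kdm2b and Kdm4c were intermediate. Phf19, a Polycomb-like PRC2 partner, was double-marked with promoter H3K27me3 of 10.5 and 10.3 and body H3K36me3 of 2.31 and 2.27.

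Imprinting means transcription from 1 parental allele, which was not measured in these cells. The listed imprinted genes fell into all classes. Of 40 analysed, 7 were H3K27me3-only (7.56% of all genes were), 12 H3K36me3-only (39.1%) and 3 double-marked (3.94%). Another 2 were unmarked (11.1%) and 16 intermediate (38.3%). Igf2r, the receptor that clears IGF2, had promoter H3K27me3 of 3.51 and 4.65 and body H3K36me3 of 5.03 and 5.30, with both marks in 2.29% of windows. Mest had promoter H3K27me3 of 5.96 and 4.65 and body H3K36me3 of 3.87 and 3.81. Slc38a4, an amino acid transporter, had 5.29 and 6.16 at the promoter and 2.32 and 2.17 in the body. These promoter values are of the most upstream listed start. At the most downstream one H3K27me3 was 1.23 and 1.60 in Mest and 2.23 and 1.78 in Slc38a4, under the limit of 3. Reads were not assigned to alleles, so marks on opposite alleles cannot be told apart from marks on the same one. Of 11 germline genes 5 were H3K27me3-only (7.56% of all genes were), among them Sycp1 of the synaptonemal complex (10.3 in both libraries), and Dpep3 was double-marked. Of 7 genes of the primed state, the Wnt pathway factor Lef1 and the ligand Wnt3 were double-marked.

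The other untreated marks, which did not enter the classes, also differed for double-marked genes. Their median body H3K36me2 was 3.04 and 2.67, above 0.82 and 0.98 in H3K27me3-only genes, 1.299 and 1.14 in H3K36me3-only genes and 1.35 and 1.27 over all genes. Median body H3K27me2 was 2.08 and 1.84, against 1.29 and 1.26 over all genes. H3K27me1, in contrast, was highest in H3K36me3-only genes, at 2.44 and 1.97, and 1.33 and 1.19 in double-marked genes, close to the 1.38 and 1.29 over all genes. For H3K36me2 and H3K27me2, but not for H3K27me1, each library put the double-marked median above that of every other class. In the authors' peak lists, the start of 91.4% of double-marked genes lay in a H3K36me2 peak, against 34.1% of H3K27me3-only, 61.4% of H3K36me3-only and 56.4% of all genes. For H3K27me2 the shares were 61.6%, 11.5%, 25.9% and 33.4% in the same order. Among intermediate genes 65.0% of starts lay in a H3K36me2 peak and 49.5% in a H3K27me2 peak. H3K36me2 and H3K27me2 were thus above the all-gene median in a class chosen by high H3K27me3 and H3K36me3; no input library was used, and the part of chromatin background in this was not tested. A single gene, intermediate by class, was at 3 or more in all 5 marks.

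**Figure D5:**
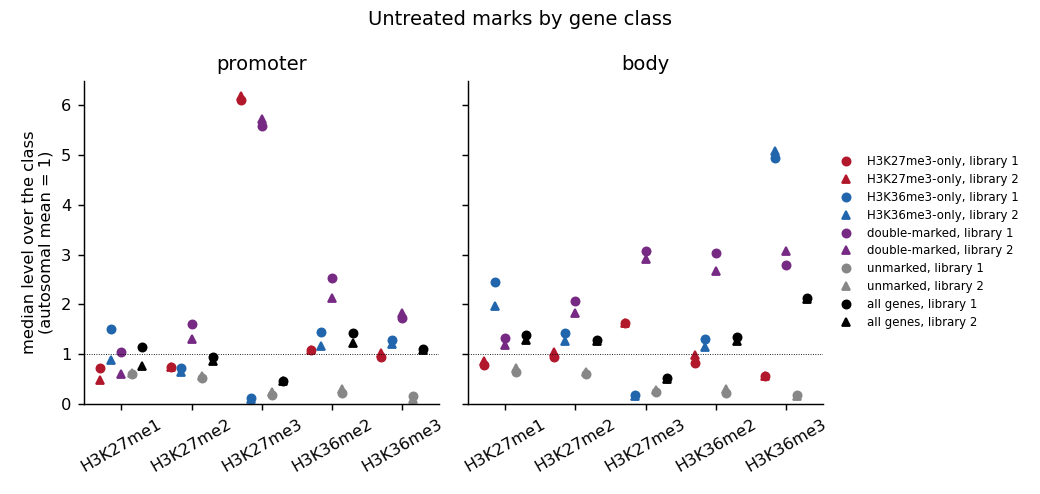
Median level over the genes of each class (y axis, autosomal mean = 1) of the 5 untreated marks at promoters (left) and in bodies (right); circles and triangles are libraries 1 and 2. Double-marked genes (purple) have the highest H3K36me2 and H3K27me2 of the classes in both regions and both libraries.

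Distances to H3K36me3-only genes were also measured. They ran from the start site of a gene to the nearest end of another gene's span, so the rest of its body was not counted. The nearest H3K36me3-only gene was at a median of 33.7 kb for double-marked and 25.4 kb for H3K36me3-only genes. It was at 273 kb for H3K27me3-only genes and 66.0 kb over all genes. Within 10 kb there was one for 16.3% of double-marked, 33.1% of H3K36me3-only and 1.88% of H3K27me3-only genes and 18.7% of all genes, so the double-marked share was slightly under that of all genes although their median distance was shorter. The part of neighbouring genes in the body H3K36me3 of double-marked genes was not tested beyond the count of genes that overlap no other: 232 of 5693 such genes (4.08%) were double-marked.

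The promoter reading held in H3K27me3 libraries that the classes had not used. In both DMSO libraries promoter H3K27me3 was 3 or more in 917 of 955 H3K27me3-only genes (96.0%) and 479 of 498 double-marked genes (96.2%), against 0 of 4936 H3K36me3-only genes and 23.9% of all genes. Slc38a4 was at 2.81 and 3.90 there. After the inhibitor, mean promoter H3K27me3 on the authors' spike-in scale was 694-fold lower than after DMSO in double-marked genes, 502-fold in H3K27me3-only, 307-fold in unmarked, 100-fold in H3K36me3-only and 419-fold over all genes. Relative to each library's own mean, the pooled mean over promoters of H3K27me3-only genes was 9.16 and 8.66 after DMSO. It was 8.78 and 10.6 after the inhibitor. In double-marked genes the pooled mean was 8.87 and 8.81, and 6.06 and 7.86. Medians over genes differed from these pooled means. In H3K27me3-only genes the median was 8.20 and 7.66 after DMSO and 3.79 and 4.23 after the inhibitor. In double-marked genes the median was 7.78 and 7.73, and again 3.79 and 4.23. As pooled means on the same relative scale, H3K36me3-only promoters went from 0.40 and 0.37 to 1.96 and 2.19. Unmarked promoters went from 0.33 and 0.34 to 0.54 and 0.63. The medians went from 0.29 and 0.27 to 1.89 and 2.12 in H3K36me3-only genes. In unmarked genes they went from 0.20 and 0.25 to 0 in both inhibitor libraries. The H3K27me3 inhibitor libraries had a mean of 0.40 and 0.71 reads per window, and the factors behind this scale are not explained in the sources used here.

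H3K36me2 was compared between inhibitor and DMSO relative to each library's own mean, to ask whether the classes moved differently. In H3K27me3-only genes the median body H3K36me2 was 1.00 and 0.98 after DMSO and 1.18 and 1.10 after the inhibitor. In double-marked genes it was 2.79 and 2.86 after DMSO and 2.31 and 2.58 after the inhibitor, and in H3K36me3-only genes 1.28 and 1.61, and 1.08 and 1.46. At promoters the median in H3K27me3-only genes was 1.19 and 1.29 after DMSO and 1.12 and 1.27 after the inhibitor, with a median log2 change per gene of -0.063, against -0.20 in double-marked, -0.23 in H3K36me3-only and -0.18 over all genes. In bodies the median log2 change per gene was 0.20, -0.20 and -0.18 in these 3 classes and -0.12 over all genes, where scaling to the median gene moved the last to -0.019. Unmarked genes also had higher relative body medians, at 0.34 and 0.32 after DMSO and 0.41 and 0.38 after the inhibitor. Their median log2 change per gene was 0.11 in bodies and 0.044 at promoters. Without regard to replicate number, the DMSO and inhibitor body medians overlapped in H3K36me3-only genes and not in H3K27me3-only, double-marked or unmarked genes. Between same-numbered libraries the H3K36me3-only body median was lower after the inhibitor for both numbers. At promoters the medians overlapped in the same way in H3K27me3-only genes and not in double-marked, H3K36me3-only or unmarked genes. Between same-numbered libraries the H3K27me3-only promoter median was also lower after the inhibitor for both numbers. In the main fit, which had no replicate block, no single gene passed. The limma calls were 0 of 12539 bodies (0% of the genes tested), with 1932 at an unadjusted p under 0.05. At promoters they were 0 of 12465, with 2014. With limma-voom on recovered reads the calls were also 0, with 2436 and 2634 at an unadjusted p under 0.05. With the replicate number as a block, 1253 bodies and 621 promoters were called. Deviations of same-numbered libraries correlated at 0.82 in bodies and 0.19 at promoters, and the labels do not say whether the numbers pair libraries.

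The 2 marks were also contrasted directly over all genes, with readings that the choice of classes used in part. At promoters limma called 82.1% of 12401 genes, 34.8% higher in H3K27me3 and 47.3% lower; with each library scaled to its median gene these were 5640 and 4390 genes in place of 4311 and 5865, since that scaling moved the median log2 difference from -0.51 to 0.44. In bodies it called 91.7% of 12524 genes, 33.4% higher and 58.3% lower, or 6286 and 5428 genes in place of 4187 and 7296 by the median gene, with the median difference moving from -1.37 to 0.40. Among double-marked bodies 191 were higher in H3K27me3, 196 higher in H3K36me3 and 111 not called. This split depends on the same scaling. It also depends on the limit of 2 for body H3K36me3 in these same libraries, which chose the class, so it is a description.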

How the data were processed

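The authors deposited, per sample, a track of log2(1 + reads per 1000000) in 1 kb windows every 500 bp. Per the submitters' processing notes, reads were trimmed with Trim Galore 0.4.2 and aligned with Bowtie2 2.2.6.2, with builds mm10 and dm3 named and SICER listed for peaks; no role is given. Deposited peak lists carry a score per peak, which was not used; only their intervals were. The log was undone and each value divided by the autosomal mean of its library. Whole reads were recovered from the step size (100% of windows whole within 0.02 of a read, widened in proportion above 20 reads). Start sites were the most upstream listed in the RefSeq promoter table (GRCm38.p6); 3321 genes without an entry were not analysed (median body H3K36me3 1.81, against 2.13 in the genes analysed), and 150 were under 5 kb from the start used to the end.

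limma 3.58.1 (R 4.3.3) was run on log2(level + 0.1) with no covariate over genes above 0 in at least 2 libraries, with Benjamini-Hochberg adjusted p under 0.05 as the call, and was tested on simulated data. A fold change on this scale understates that of low genes. Members and lists were chosen with earlier results of these data known. Named genes were the 8 highest of each class and the 3 nearest on each side of the double-marked limits. From each list up to 4 leading members and all double-marked members were named. Genes of the second-start set were named after their values were seen. Ezh2, Kdm2b and Kdm4c were named outside these rules. Alternatives covered the pseudocount, filter, scale, limits, region, gene set, replicate block and leaving out each library. Other splits were added after seeing the data: a crossed pairing, the most downstream start, and genes with 1 start.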

Additional observations from a re-analysis of the deposited data

How the results depend on the processing

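Of 117 recomputed counts, 101 stayed within 1.5 times the main count. Of 332 recomputed levels of single genes, 191 moved by more than the SD of the 2 libraries and 141 did not; these used other regions or the DMSO libraries. With limits of 2 and 1.5 there were 1201 double-marked genes and with 5 and 3 there were 78, while H3K27me3-only genes fell to 564 with the latter. Restricting to genes of 20 kb or more left 2754 H3K36me3-only, 221 double-marked and 728 unmarked genes, and restricting to genes that overlap no other left 401 H3K27me3-only, 2016 H3K36me3-only, 232 double-marked and 884 unmarked genes; both test fewer genes. Leaving out each library in turn gave 524 to 607 double-marked genes and 2133 to 4622 calls for the tilt. The class limits must hold in both libraries of a mark, so leaving out a library can only keep or raise the class count. For the inhibitor, promoter H3K36me2 gave 10 calls with the median gene as scale, and 0 to 17 when a library was left out, with 17 reached without DMSO library 1; the cause was not tested. The labels do not say whether the replicate numbers pair the libraries (2 pairs in each comparison). With the replicate block there were 621 calls at promoters and 1253 in bodies for H3K36me2, 4499 for the tilt, 10258 at promoters and 11371 in bodies between the marks; the deviations of same-numbered libraries correlated at 0.82 in bodies and 0.19 at promoters for H3K36me2, and between the marks at -0.30 in bodies, where crossing the pairing gave 11643 calls. Leaving out a library gave the tilt of Tbx1 values from -0.15 to 0.071, the sign changing without H3K27me3 library 1 (0.0096) or H3K36me3 library 2 (0.071), and that of Dnmt3b values from -0.014 to 0.47, changing without H3K27me3 library 2; neither passed in any of these. With 2 libraries a group, a promoter H3K27me3 level of 1 rests on 44.97 to 53.8 window reads, and in the inhibitor libraries on 1.58 and 2.84. Distinct reads are fewer than these counts, since the windows overlap.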

Other observations

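Unmarked genes, low for promoter H3K27me3 and body H3K36me3, were low for the other untreated marks as well. Their median body level was 0.23 and 0.30 for H3K36me2, 0.65 and 0.73 for H3K27me1 and 0.61 and 0.65 for H3K27me2, against 1.35 and 1.27, 1.38 and 1.29, and 1.29 and 1.26 over all genes. Their starts lay far from H3K36me3-only genes, at a median of 434 kb, and 9.63% of these starts lay in a H3K27me2 peak of the authors' list.

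The starts of H3K36me3-only genes lay in a H3K27me1 peak of the authors' list in 49.3% of genes, against 8.23% of double-marked, 2.30% of H3K27me3-only and 28.0% of all genes. For H3K27me2 the share was 25.9% in H3K36me3-only genes, below the 33.4% of all genes. Their share in H3K27me3 peaks was fixed by the choice of the class.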
